A study of Gallus gallus with 18 samples.

Results

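The comparison described here set 3 uterus libraries of the high eggshell strength group against 3 of the low strength group, all from the growth period of calcification. These are 6 of the 18 libraries of the series. They were chosen by the strength group and period in their labels, not by a measured value, though earlier results of these data were known. All came from Hy-Line Brown hens, a commercial brown-egg layer, at 42 weeks of age, and no treatment was given in the labels. The groups differ in whether the hens laid hard or weak shells. The labels do not tie a library to a single hen, and the spread behind each p-value is that between libraries, which may in part be technical. The other 12 libraries, from the initiation and termination periods, served mainly to ask whether the strength difference in growth differed from that in the other periods.

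In the uterus, also called the shell gland, the egg is held while its shell is laid down. Its epithelium takes calcium from the blood and passes it to the fluid around the egg, and it supplies bicarbonate made with the help of carbonic anhydrases. The same cells secrete matrix proteins that become part of the shell and influence how its calcite crystals form. Growth is the period in which most of the shell mineral is deposited, between the first crystals on the shell membranes and the end of mineral deposition. The comparison of hard and weak shells in growth asks which uterine transcripts differ between the hens while the shell is being built.

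The deposited table lists 20866 loci by identifier, of which 17108 have Ensembl identifiers and 3758 were numbered by the authors outside that annotation. The files do not pair identifiers with gene names, and 0 identifiers could be matched to the reference gene table used here, so genes are given by identifier and nothing is said of their function. For the same reason the uterine label could not be checked against marker genes, and no marker of blood, muscle or immune cells was read. RNA came from whole tissue, in which fewer cells of a type and less RNA per cell cannot be told apart. The high growth libraries held 13762700, 13715855 and 16061908 counts, and the low growth libraries 16125109, 15354482 and 15964438. Between 17862 and 18027 loci had counts in each, and 14808 loci above 1 CPM (counts per 1000000) in at least 3 of the 6 libraries were tested.

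While the shell was growing, none of the 14808 loci passed the test between hens laying hard and weak shells. The 10 most abundant loci overlapped between the groups, as did all but 8.28% of the loci tested. The lowest p-values belonged to Novel02327, near the counting floor in low strength, and ENSGALG00000011219, near it in high strength. edgeR's quasi-likelihood test, with the spread taken from these 6 libraries, called 0 loci at an adjusted p below 0.05 (0% of those tested). An unadjusted p below 0.05 was found for 604 loci, or 4.08%, with 296 (2%) estimated higher in high strength and 308 (2.08%) lower. limma-voom with library weights also called 0 loci, with 1250 at an unadjusted p below 0.05. DESeq2 called 32 loci (0.216%), 19 of them higher in high strength and 13 lower. Without low growth replicate 3, edgeR called 4 loci.

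The estimated differences were small. The absolute log2 difference between the groups was 0.13 at the median locus and 0.65 at the 95th percentile. The median signed difference, high minus low, was 0.01, and 51.4% of the loci were estimated higher in the high strength group. More than 2-fold differences were estimated for 246 loci (1.66%), 139 higher (0.939%) and 107 lower (0.723%). In 123 of these (0.831% of the loci tested) the values of the groups did not overlap, and in the other 123 they did. In 79 of the 246, a single library stood more than 2-fold beyond all 5 others.

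The loci named next were chosen for groups that did not overlap and for the lowest p of their kind, Ensembl or numbered, in each direction. They illustrate how clear a difference could be in these 6 libraries, and their gaps follow in part from that choice. Novel02327, a locus numbered by the authors, stood at 5.94, 5.03 and 3.40 CPM in the high growth libraries and at 0.182, 0.320 and 0.175 CPM in the low growth libraries. All 3 high libraries lay more than 10-fold above the highest low library. The low values rest on 3, 5 and 3 counts, close to the floor of 3 counts per library, which is 0.186 to 0.219 CPM here and covers counting error only. Its log2 difference was 4.38 ± 0.41 (standard error, SE), with a 95% interval from 3.43 to 5.33 (edgeR adjusted p = 0.0974). DESeq2 called it (DESeq2 adjusted p = 6.80e-10), as did edgeR in the fit to all 18 libraries (edgeR adjusted p = 0.0289).

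ENSGALG00000011219 showed the largest difference in the other direction. It had 0.290, 0.196 and 0.230 CPM in high growth and 6.17, 5.56 and 2.51 CPM in low growth. Every low library was far above every high library, with 102, 87 and 43 counts against 4, 3 and 4. The log2 difference was −4.27 ± 0.49 (SE; edgeR adjusted p = 0.193). Without low growth replicate 3 the difference was −4.58 and passed the test (edgeR adjusted p = 0.0372), and DESeq2 called it with all 6 libraries. Over 13 alternative settings its adjusted p ranged from 6.74e-08 to 0.891.

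A pair of Ensembl loci was higher in the high strength group without overlap. ENSGALG00000026107 stood at 6.67, 5.75 and 4.09 CPM in high growth and at 0.424, 1.21 and 1.28 CPM in low growth, a log2 difference of 2.49 ± 0.43 (SE; edgeR adjusted p = 0.738). ENSGALG00000027910 stood at 3.19, 4.90 and 3.40 CPM against 0.847, 1.02 and 1.17 CPM, a log2 difference of 1.92 ± 0.31 (SE; edgeR adjusted p = 0.738). In both, the lowest high library was more than 2-fold above the highest low library. Neither passed edgeR's test, and both were among the 32 loci that DESeq2 called (DESeq2 adjusted p = 1.04e-04 and 0.00336).

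On the other side, ENSGALG00000028301 differed little in size but also little among replicates. It had 18.1, 17.0 and 15.5 CPM in high growth and 29.9, 29.1 and 27.1 CPM in low growth. The spread within each group was small beside the gap between them. The log2 difference was −0.76 ± 0.13 (SE; edgeR adjusted p = 0.738), and DESeq2 called it (DESeq2 adjusted p = 0.00427). Novel01563, the numbered locus with the lowest p among those lower in the high strength group, had 0.435, 0.523 and 0.403 CPM against 1.51, 1.73 and 1.63 CPM. Its log2 difference was −1.82 ± 0.33 (SE; edgeR adjusted p = 0.738), and DESeq2 did not call it.

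**Figure D1:**
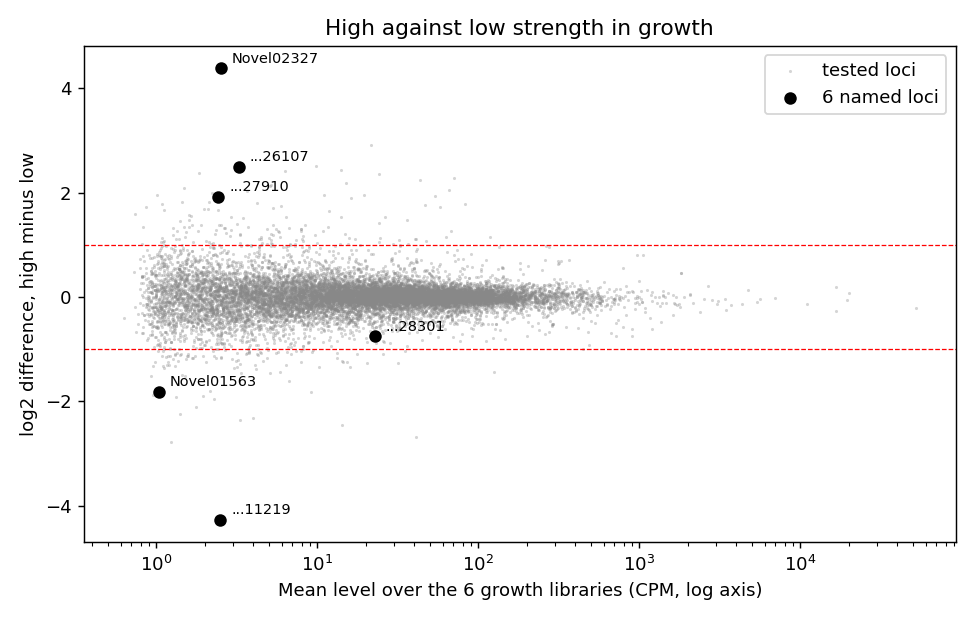
Log2 difference between high and low strength in growth (vertical axis) against mean level over the 6 growth libraries in CPM (horizontal axis, log scale), 1 point per tested locus, with dashed lines at 2-fold and Ensembl identifiers shortened to their last digits. Most loci lie close to 0, the 246 loci beyond the lines are mostly of low level, and Novel02327 at 4.38 and ENSGALG00000011219 at −4.27 lie farthest out.

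In all of the 32 loci that DESeq2 called, the values of the groups did not overlap, and 23 differed more than 2-fold. Over all loci tested, 8.28% did not overlap and 1.66% differed more than 2-fold by edgeR's estimate. The 32 were selected by p in the same 6 libraries, so high shares follow largely from the selection. Their absolute log2 differences ran from 0.57 to 4.43. They included 21 Ensembl loci, 9 higher and 12 lower in high strength, and 11 numbered loci, 10 of them higher. In edgeR's test the same 32 loci had unadjusted p-values between 6.58e-06 and 0.00591 and adjusted p-values between 0.0974 and 0.947. The 4 loci that edgeR called without low growth replicate 3 were ENSGALG00000011219, ENSGALG00000016667, Novel02598 and ENSGALG00000004766, named after their values were seen.

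These 4 (0.027% of the loci tested) were picked by their call without low growth replicate 3. The weight of that library in them therefore follows from the choice. ENSGALG00000016667 had 8.55, 15.4 and 9.21 CPM in high growth and 113, 79.3 and 22.1 CPM in low growth, where replicate 3 was the lowest of its group. Novel02598 had 20.4, 28.5 and 21.9 CPM in high growth and 3.03, 3.01 and 7.24 CPM in low growth, where replicate 3 was the highest. ENSGALG00000004766 had 22.1, 24.5 and 18.6 CPM in high growth and 3.03, 2.05 and 36.7 CPM in low growth. In that locus replicate 3 lay above all high strength libraries, and with it included the log2 difference was 0.65 ± 0.92 (SE; edgeR unadjusted p = 0.499).

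Over all loci, 1226 (8.28%) had groups that did not overlap, 571 with high above low (3.86%) and 655 with high below low (4.42%). Complete separation of 3 against 3 libraries has an exact two-sided permutation p of 0.1. Many separated loci would therefore be found without any strength difference. Among the 2823 tested loci numbered by the authors, 250 (8.86%) did not overlap, and among the 11985 Ensembl loci 976 (8.14%). More than 2-fold differences were estimated for 87 of the numbered loci (3.08%), 57 higher (2.02%) and 30 lower (1.06%) in high strength. Among the Ensembl loci there were 159 (1.33%), 82 higher (0.684%) and 77 lower (0.642%). An unadjusted p below 0.05 was found for 135 numbered loci (4.78%) and 469 Ensembl loci (3.91%). The numbered loci also had the larger error, with a median standard error of 0.30 against 0.19 for Ensembl loci. The shares were not tested against each other.

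Loci present in 1 growth group only were sought among the 16110 loci above 1 CPM in at least 3 of the 18 libraries. Loci below that filter were not searched. Only 1 locus had no counts in any high growth library and a mean of at least 1 CPM in low growth, and 0 loci showed the reverse. This was Novel00323, named after its values were seen, at 0, 0.128 and 6.54 CPM in low growth, so that its level came from replicate 3 alone. It was too low in the other libraries to be tested. At initiation it stood at 0.220, 23.2 and 10.3 CPM in the high strength group and had no counts in the low strength group.

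How small a difference these libraries could bound depended on the level of the locus. The median standard error of the log2 difference was 0.38 for the 2063 loci under 3 CPM, 0.27 for the 2884 between 3 and 10 CPM, 0.17 for the 8033 between 10 and 100 CPM and 0.16 for the 1828 above 100 CPM. The 95% interval, taken from the fit without adjustment for the number of loci, lay wholly inside a 2-fold difference for 11554 loci, or 78.0%. It lay inside a 1.5-fold difference for 6708, or 45.3%. Of the loci above 100 CPM, 94.1% were bounded within 2-fold and 69.1% within 1.5-fold. Under 3 CPM, 25.6% were bounded within 2-fold, and 1 locus within 1.5-fold. For the remaining loci the interval reached beyond a 2-fold difference.

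**Figure D2:**
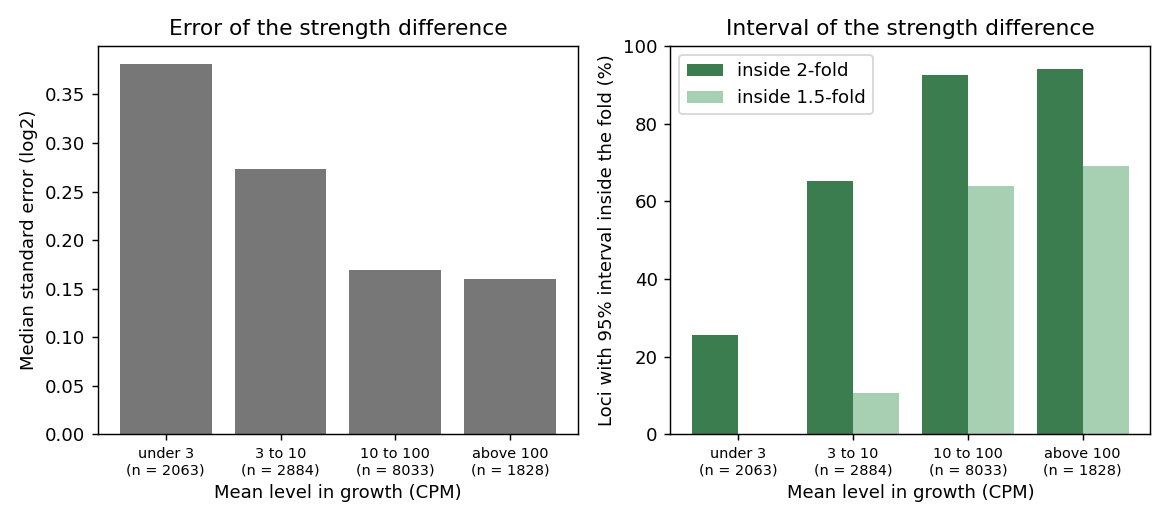
Left, the median standard error of the log2 difference between high and low strength in growth for loci grouped by mean level; right, the percent of loci whose 95% interval lies inside a 2-fold (dark) or 1.5-fold (light) difference. The error falls from 0.38 under 3 CPM to 0.16 above 100 CPM, while the share bounded within 2-fold goes from 25.6% to 94.1%.

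The most abundant transcripts, which take much of the sequencing in this secretory tissue, overlapped between the groups, as most loci did. The 10 loci of highest mean level made up 14.8% to 18.2% of the counts of a library, 16.2% ± 1.74 in high growth and 17.0% ± 1.32 in low growth (SD, n = 3 each; exact two-sided permutation test, p = 0.8). In all 10 the groups overlapped, with log2 differences between −0.26 and 0.19 and unadjusted edgeR p-values of at least 0.284. Over all loci tested only 8.28% did not overlap, so overlap in these 10 is near the background. ENSGALG00000010927, the most abundant, stood at 62991, 35092 and 46081 CPM in high growth and 65359, 64968 and 38329 CPM in low growth. Its lowest values were in high growth replicate 2 and low growth replicate 3, 1 library of each group. The log2 difference was −0.22 with a 95% interval from −1.0 to 0.56. ENSGALG00000009594 had 22028, 19163 and 20504 CPM against 16343, 17879 and 24457 CPM, a log2 difference of 0.08 with an interval from −0.47 to 0.63. Its highest and its lowest value were both in low growth.

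Libraries of the same strength group differed about as much as libraries of different groups. Pairs of libraries correlated across loci at Pearson's r between 0.954 and 0.967 within high growth, between 0.967 and 0.976 within low growth, and between 0.959 and 0.972 across the groups. High growth replicate 1 was closest to low growth replicate 1 (r = 0.972), and high growth replicate 2 to low growth replicate 3 (r = 0.972). Of the summed squares of log2 CPM over all loci, 19.0% lay between the strength groups, with a median of 9.33% per locus. The split by strength takes 1 of the 5 degrees of freedom among 6 libraries, or 20%. That is a reference for the summed share of 19.0% and not for the median per locus. From the lowest to the highest of the 6 libraries, 3762 loci (25.4%) spanned more than 2-fold and 655 (4.42%) more than 4-fold.

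The largest axis of variation ran across the strength groups. The first principal component held 33.8% of the variance, with scores of −32.4, 40.2 and 1.97 in high growth and −18.7, −16.9 and 25.9 in low growth (exact two-sided permutation test, p = 0.8). High growth replicate 2 and low growth replicate 3 lay together at its positive end and the other low growth libraries with high growth replicate 1 at its negative end. The GC content of the reads was lowest in the libraries at the positive end, at 49.4% and 49.7%. It was between 50.1% and 50.3% in the other 4, among which it did not follow the order of the scores. The part of base composition in this axis was not tested. When the other periods were placed on the same axis, the initiation libraries scored from 27.1 to 38.7 and the low termination libraries from 31.5 to 37.7, which is on the side of high growth replicate 2 and low growth replicate 3. High termination scored 4.17, −4.33 and 41.8.

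The second component separated the groups. It held 19.0% of the variance, with scores of −22.3, −8.80 and −24.1 in high growth and 15.3, 25.0 and 14.9 in low growth. The exact two-sided permutation test gave p = 0.1, the smallest that this test allows with 3 against 3 libraries, so it cannot reach 0.05. The components after the second held 17.4%, 15.7% and 14.2% of the variance, not far below it. On the third component the groups overlapped, and they were not compared on the later ones. The permutation p of 0.1 takes no account of how many components were looked at.

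**Figure D3:**
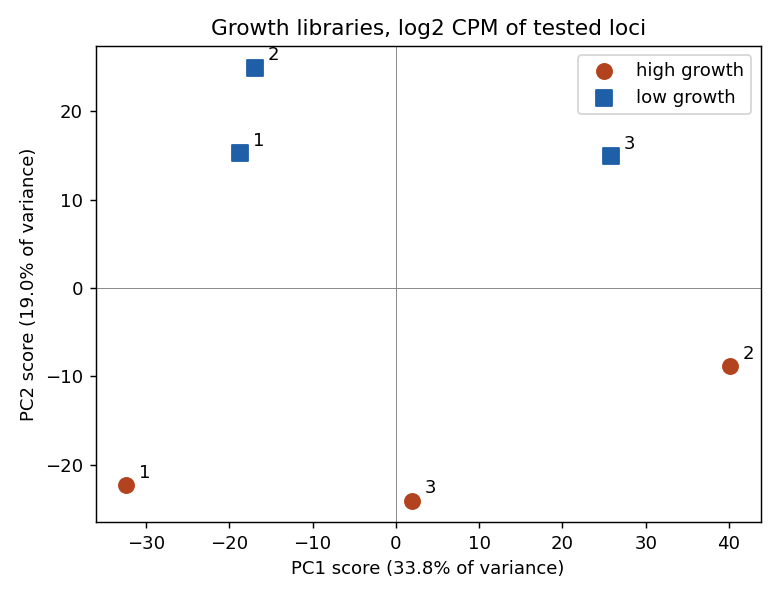
Scores of the 6 growth libraries on the first and second principal components of log2 CPM over the tested loci, with circles for high and squares for low strength and numbers for replicates. The groups interleave along the horizontal axis and separate along the vertical one, where high growth lies between −24.1 and −8.80 and low growth between 14.9 and 25.0.

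The high strength libraries varied more among themselves. The median SD of log2 CPM per locus was 0.25 in high growth and 0.20 in low growth, and the SD was larger in high growth for 9265 loci (62.6%). High growth replicate 2 was the highest of the 6 libraries for 3417 loci (23.1%) and the lowest for 4006 (27.1%), more than any other library in each case. High growth replicate 1 stood more than 2-fold below all other libraries for 75 loci, against 34 to 46 in the other 5. Depth and read quality were lower in high growth replicates 1 and 2 than in every low growth library, in clean read pairs, total counts and bases at quality 30 or above. Their part in the results was not tested. Clean read pairs numbered between 19871586 and 23108074 (exact two-sided permutation test, p = 0.3), and bases of mate 1 at quality 30 or above were 93.0% ± 0.670 in high growth and 93.8% ± 0.221 in low growth (SD, n = 3 each; exact two-sided permutation test, p = 0.2).

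Strength differences seen in growth were next set beside those at initiation and termination, which come from other libraries. Across 14298 loci the growth and initiation differences had a Pearson's r of 0.055 and a Spearman's rho of 0.041, and across 14077 loci the growth and termination differences had 1.28e-04 and −0.041. Loci are not independent replicates, and no p is given. The absolute difference had a median of 0.12 in growth, 0.33 at initiation and 0.52 at termination over these loci. The test on the 6 initiation libraries called 2181 of 15238 loci (14.3%), with 4757 (31.2%) at an unadjusted p below 0.05 and 2134 (14%) beyond 2-fold. The test on the 6 termination libraries called 0 of 14664 (edgeR), with 1979 (13.5%) at an unadjusted p below 0.05 and 3407 (23.2%) beyond 2-fold. High termination replicate 3, at 41.8 on the first component against 4.17 and −4.33 in its group, is among these libraries. The termination values here and in the next paragraph were not recomputed without it. Leaving it out raised the calls for growth against termination from 4 to 6991, as described below.

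Of the loci called higher in the high strength group at initiation, 852 were measured in growth, and 55.8% of these were higher there too, with a median log2 difference of 0.03. Of 1070 called lower at initiation, 48.4% were lower in growth, with a median of 0.01. Over all loci tested in growth, 51.4% were higher and the median was 0.01, so both shares were near the background. In the other direction, 66 loci were more than 2-fold higher in growth without overlap (0.446% of those tested) and 57 more than 2-fold lower (0.385%). Of the 66, 56 were measured at initiation and 39 were higher there (69.6%, against 52.0% of all loci), with a median of 0.33. Of the 57, 45 were measured and 23 were lower (51.1%, against 48.0%). At termination 18 of 56 and 33 of 44 kept their direction (32.1% against 51.4% of all loci, and 75.0% against 48.6%). Both sets leaned lower in high strength there, with medians of −0.31 and −0.47 against 0.03 over all loci. The share of 75.0% is therefore not particular to loci that were lower in growth.

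Among the loci named for growth, ENSGALG00000026107 was higher in high strength at initiation too. At initiation it stood at 2.79, 3.49 and 8.14 CPM in the high strength group and 1.05, 0.953 and 1.27 CPM in the low strength group, again without overlap. The log2 difference there was 2.17 ± 0.47 (SE) and passed the test on the 6 initiation libraries (edgeR adjusted p = 0.0251). Of all loci tested at initiation 14.3% passed, so a single pass among the named loci is near the background. At termination its groups overlapped, at 8.63, 10.3 and 43.8 CPM against 13.8, 20.1 and 9.88 CPM, a log2 difference of 0.52 ± 0.68 (SE). ENSGALG00000027910 and ENSGALG00000028301 differed little at initiation. Their log2 differences there were −0.065 ± 0.58 and −0.070 ± 0.24 (SE; edgeR adjusted p = 0.951 and 0.869).

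ENSGALG00000011219 lay on opposite sides in different periods. At initiation it had 1.39, 1.59 and 0.962 CPM in the high strength group and 0.443, 0.238 and 0.799 CPM in the low strength group. At termination it had 1.5, 3.82 and 3.65 CPM against 0, 0.599 and 0.623 CPM. The high strength group was thus above the low one without overlap in both of these periods and below it without overlap in growth. The low strength values rested on 8, 4 and 12 counts at initiation and on 0, 6 and 7 at termination. In neither period did the locus pass the test on that period's own libraries (edgeR adjusted p = 0.0817 at initiation and 0.364 at termination). Its strength difference in growth differed from that at initiation by −5.68 log2 units ± 0.99 (SE; edgeR adjusted p = 0.00761), and the call held in all 17 alternative settings. It differed from that at termination by −7.18 ± 1.02 (SE; edgeR adjusted p = 0.0213), a call lost in 8 of 17 settings. The locus was chosen for its growth values, which are part of both contrasts.

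Novel02327 also differed between growth and initiation in its strength difference. At initiation its groups were alike, at 1.85 ± 0.752 and 1.88 ± 0.195 CPM (SD, n = 3 each), and at termination they stood at 10.7 ± 6.61 and 6.06 ± 1.65 CPM. Low growth, at 0.225 ± 0.0817 CPM, was the lowest of the 6 groups. The strength difference in growth exceeded that at initiation by 4.38 log2 units ± 0.75 (SE; edgeR adjusted p = 0.00682), a call that held in all 17 settings, with the same limit on how the locus was chosen. It exceeded that at termination by 3.54 ± 0.73 (SE) without passing the test (edgeR adjusted p = 0.149).

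**Figure D4:**
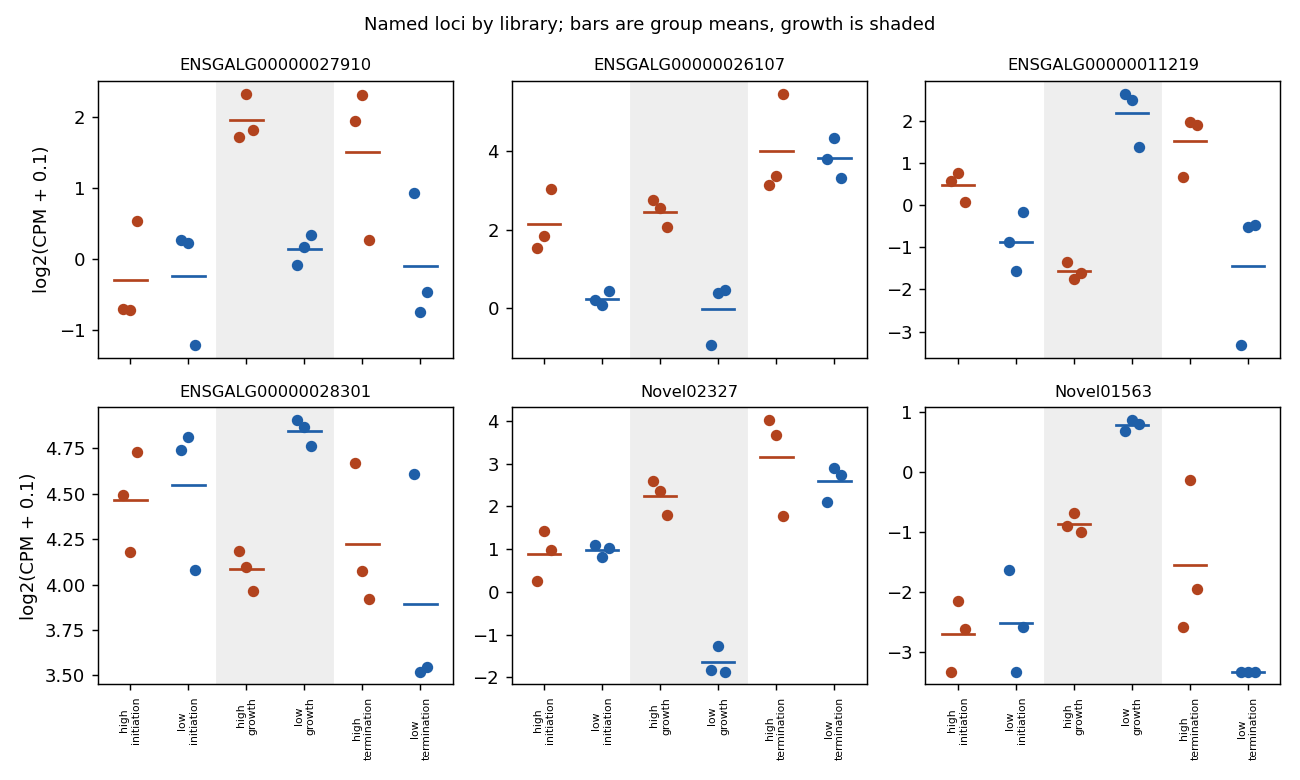
Levels of the 6 named loci as log2(CPM + 0.1) in each of the 18 libraries, by strength group and period, with points for libraries, bars for group means and growth shaded. In growth the groups do not overlap in any of the 6 loci, which was a condition of their choice. ENSGALG00000011219 is lower in high strength in growth and higher in it at initiation and termination, and ENSGALG00000026107 is higher in high strength at initiation too.

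The strength difference in growth differed from that at initiation for 307 of 16110 loci (1.91%; edgeR quasi-likelihood test over all 18 libraries), with 222 relatively higher in growth (1.38%) and 85 relatively lower (0.528%). An unadjusted p below 0.05 was found for 2024 (12.6%). In 302 of the 307 the absolute difference was larger at initiation, with a median of 1.98 log2 units against 0.22 in growth. The count depended on single libraries. It was 358 without low initiation replicate 3. Leaving out high initiation replicate 1, 2 or 3 gave 182, 179 and 132, and leaving out low initiation replicate 1 or 2 gave 127 and 126. It was 199 and 192 without high growth replicates 2 and 3, and 171 and 179 without low growth replicates 1 and 2.

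The 2 Ensembl loci of lowest p in each direction of that test differed far less in growth than at initiation. ENSGALG00000016325 had 4.35, 5.36 and 6.22 CPM in high growth and 6.05, 4.35 and 4.55 CPM in low growth, while at initiation it stood at 7.37 ± 0.814 CPM in high and 540 ± 38.8 CPM in low strength (SD, n = 3). ENSGALG00000005360 stayed at or below 1.73 CPM in all 6 growth libraries, too low to be tested in growth alone. It stood at 0.449 ± 0.295 CPM in high initiation and at 10702 ± 1894 CPM in low initiation. In both, a level found in the low initiation libraries was missing from growth in either strength group. ENSGALG00000002105 had 93.3 ± 7.37 and 97.5 ± 13.3 CPM in growth, high strength first, and 85.1 ± 3.89 and 26.4 ± 7.96 CPM at initiation. ENSGALG00000003640 had 730 ± 41.6 and 930 ± 204 CPM in growth, and 1148 ± 125 and 308 ± 95.1 CPM at initiation. For ENSGALG00000002105 and ENSGALG00000003640 low initiation was the lowest of the 4 groups, and the growth groups overlapped.

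Growth and termination differed in the strength difference for 4 of 16110 loci (0.0248%; edgeR quasi-likelihood test), with 3253 (20.2%) at an unadjusted p below 0.05. DESeq2 called 548. Without high termination replicate 3, which lay apart from its group on the axis described above, edgeR called 6991. The count was 0 without high growth replicate 1 or 2, low growth replicate 2 or low termination replicate 2 or 3. It was 1 without low growth replicate 1 or low termination replicate 1, and 2 without high growth replicate 3 or high termination replicate 1. With the replicate number as a block it was 0. With total-count scaling it was 2, both relatively lower in growth, against 2 relatively higher (0.0124%) and 2 lower (0.0124%) with TMM, the scaling used elsewhere.

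Beside ENSGALG00000011219, the 4 were ENSGALG00000028929, Novel02318 and Novel01467. ENSGALG00000028929 overlapped in growth, at 26.7, 17.9 and 39.0 CPM against 28.4, 30.4 and 14.2 CPM, and stood at 37.1 ± 4.39 and 2.15 ± 1.03 CPM at termination (SD, n = 3). Novel01467 was also level in growth, at 32.2 ± 4.95 and 33.7 ± 2.77 CPM, and differed at termination, at 8.77, 12.4 and 8.88 CPM in high strength and 37.5, 35.6 and 31.2 CPM in low strength. Novel02318 had 2.54, 3.47 and 2.99 CPM in high growth and 0.787, 0.959 and 1.05 CPM in low growth, without overlap, and at termination 2.53 ± 1.03 against 6.73 ± 2.93 CPM. In growth alone its log2 difference was 1.69 ± 0.29 (SE; edgeR adjusted p = 0.738).

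A further pair had the lowest p-values in that test among the Ensembl loci relatively higher in growth, without passing it. ENSGALG00000023542 had 6.16, 5.82 and 8.46 CPM in high growth and 3.69, 3.20 and 2.51 CPM in low growth, and 1.92 ± 0.303 against 4.19 ± 1.13 CPM at termination (edgeR adjusted p = 0.0727 for the difference between periods). ENSGALG00000006306 had 3.12, 3.27 and 3.91 CPM against 1.75, 1.85 and 1.93 CPM in growth, while its termination groups stood at 2.58 ± 0.237 and 6.16 ± 0.792 CPM (edgeR adjusted p = 0.0802). In both the high strength libraries were all above the low ones in growth and all below them at termination.

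**Figure D5:**
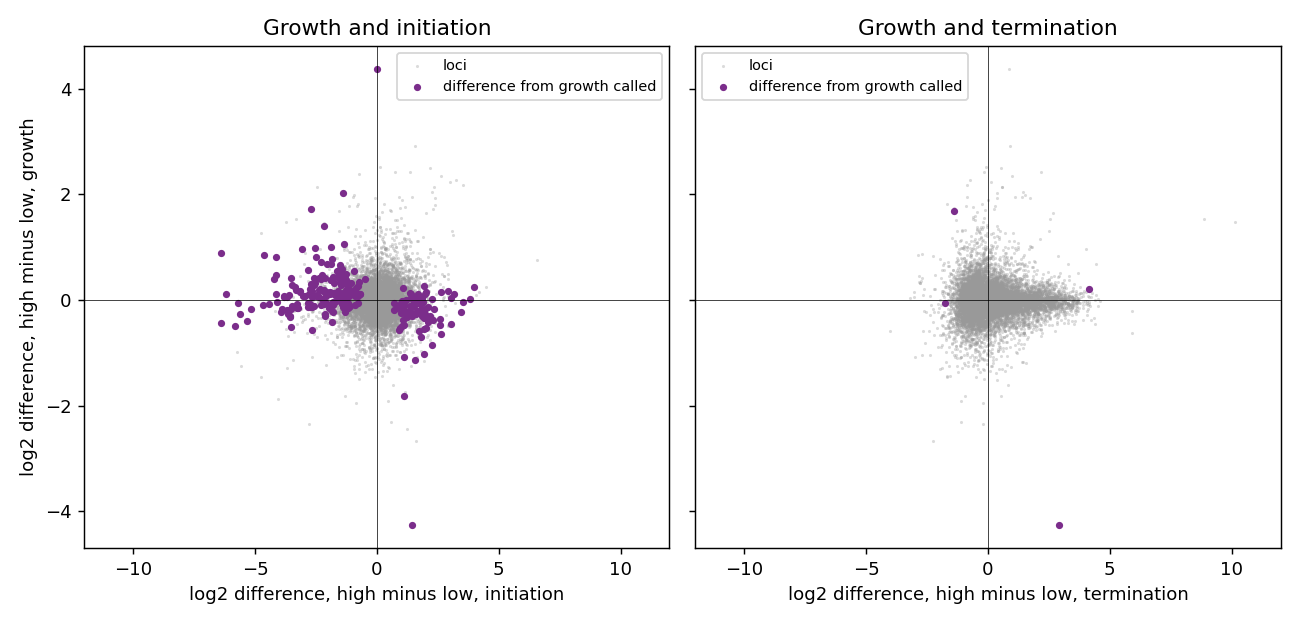
Log2 difference between high and low strength in growth (vertical axis) against the same difference at initiation (left) and at termination (right), 1 point per locus measured in both periods, with purple for loci whose difference changed between the periods. Of the 307 loci called for growth against initiation, 257 were measured in both and are purple on the left, most with growth differences near 0, and 4 are purple on the right.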

How the data were processed

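The authors deposited counts per locus for all 18 libraries in a table named as normalized. Its values were treated as counts because 0 were fractional and library totals followed clean read pairs; a rescaling close to 1 followed by rounding could not be seen. Per the submitters' processing notes, Bowtie2, TopHat, TopHat2 and build galGal4 were used. Neither the counting tool nor its strand setting is given in the sources used here. Overlapping, antisense and near-identical genes are therefore uncertain. The authors also deposited read numbers, GC content and quality in percent per library; values of mate 1 are given.

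The 6 growth libraries entered edgeR 4.0.16 under R 4.3.3, with TMM scaling. Its quasi-likelihood test gave high minus low strength, two-sided, adjusted by Benjamini-Hochberg over all tested loci at 0.05. Standard errors were the log2 difference divided by the square root of F, and intervals used the fit's degrees of freedom. Differences between periods were tested as interactions over all 18 libraries, 16110 loci. CPM levels, principal components and correlations used TMM factors of all 18 libraries (log2 CPM with a prior count of 2). Read statistics were compared with exact permutation tests (scipy 1.17.1).

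Loci named for growth averaged 1 CPM or more in whichever group was higher and did not overlap between groups (for differences between periods, at least 1 CPM in any of the 4 groups). By unadjusted p, 2 Ensembl loci in each direction per test and 1 numbered locus in each direction in growth were taken, plus called loci where 5 or fewer were called and the 2 most abundant. The comparison and lists were chosen with earlier results of these data known. Gene lists fixed by symbol could not be matched and were not tested. Pairs of growth libraries within a group differed beyond counting noise (chi-square over its degrees of freedom between 16.4 and 55.3). Alternatives were DESeq2 1.42.0, other scalings and filters, a replicate block, limma-voom (limma 3.58.1), all 18 libraries and leaving out each library.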

Additional observations from a re-analysis of the deposited data

Results flagged for a closer look

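The strength difference in growth differed from that at initiation in 307 loci and from that at termination in 4 loci, by tests of the difference itself. Relative to initiation, the difference in growth was higher by 6.29 log2 units in ENSGALG00000016325, by 15.77 in ENSGALG00000005360 and by 4.38 in Novel02327. The 15.77 rests on the level in low initiation, with group means under 1 CPM in growth and high initiation. Relative to initiation the difference in growth was lower, at −1.75 in ENSGALG00000002105, −2.25 in ENSGALG00000003640 and −5.68 in ENSGALG00000011219. Relative to termination it was −7.18 in ENSGALG00000011219, −3.92 in ENSGALG00000028929, 3.08 in Novel02318 and 1.73 in Novel01467. In that order, the calls relative to termination were lost in 8, 9, 13 and 10 of 17 alternative settings.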

How the results depend on the processing

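The count of loci called in growth, 0, became 32 with DESeq2 and 1 (Novel02327) in the fit to all 18 libraries, and ran from 0 to 4 without single libraries. It remained 0 with total-count and upper-quartile scaling, no filter, a filter at 5 CPM, limma-voom and the replicate block. The count beyond 2-fold, 246, became 1952 with no filter, which adds loci of few counts, 100 with the filter at 5 CPM, which removes them, 508 with all 18 libraries and 397 with limma-voom, and ran from 298 to 369 without single libraries. The difference between growth and initiation gave 794 calls with DESeq2 and 4860 with limma-voom, and 126 to 358 without single libraries. That between growth and termination gave 548 with DESeq2, 2 with total-count scaling, 0 with the replicate block and 9503 with limma-voom, and 0 to 6991 without single libraries. Beyond the filters, the cause was not tested. The log2 difference of ENSGALG00000009594 ran from −0.033 (without low growth replicate 1), a reversal, to 0.27 without single libraries.

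Deviations of same-numbered growth libraries from their group means correlated at 0.20, −0.17 and −0.01. With 3 libraries a group, these values cannot settle whether replicate numbers pair the libraries. With the block, the growth and initiation comparison over all 18 libraries gave 285 calls. Under total-count scaling the median over all loci was 0.12 for growth against initiation and −0.24 for growth against termination. With the filter at 5 CPM, only ENSGALG00000028301 of the 6 loci named for growth was tested. The 6 loci kept their direction in every alternative run that tested them. They were chosen for groups that did not overlap, so a change of direction was unlikely from the start. With 3 libraries a group, loci under 3 CPM were mostly not bounded within 2-fold. Settings for gene lists and for values other than counts did not apply.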
